A study of Mus musculus with 16 samples.

Results

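The 10 genes described here are YAP and TEAD genes and their textbook targets: the coactivator Yap1, the DNA-binding partner Tead1, and the target genes Ccn1, Ccn2, Ankrd1, Ajuba, Amotl2, Nt5e, Axl and Lats2. They were taken by symbol from the 54838 genes of the count table, and all 10 matched 1 Ensembl gene each. RNA-seq libraries of mouse liver were made from tumor and from the liver tissue around it (peri-tumor) of 8 mice, and every mouse is labelled HrasG12V, an activated form of the Ras oncogene. The groups are TCM tumor and TCM peri-tumor tissue, from 4 mice treated with a decoction of traditional Chinese medicine (TCM), and control tumor and control peri-tumor tissue, from 4 mice labelled control. Both tissues of a mouse were sequenced, which makes 4 libraries a group and 16 in all. All labels carry 3 months, without saying whether this is age or length of treatment. The treatment protocol speaks of Ras-transgenic mice and of mice induced with the carcinogen DEN in 1 phrase. The sources used here do not give whether these mice had DEN, what drives the transgene in the liver, or what the decoction holds.

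YAP is the coactivator at the end of the Hippo pathway. When the MST and LATS kinases are active, LATS phosphorylates YAP and its relative TAZ, which then stay in the cytoplasm. When the kinases are inactive, YAP and TAZ enter the nucleus and bind TEAD factors, which have no strong activity alone. In the liver YAP is known for control of organ size and for tumor growth in mice. YAP activity is set largely by phosphorylation and location, so the level of its RNA does not measure it, and target genes are commonly read instead, although each of them also answers to other signals.

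Library totals ran from 13947483 to 16194224 counts. Levels are given as normalised read counts (CPM, counts over library totals scaled by the TMM method). The tissue labels fit the fetal liver genes Afp and Gpc3. These summed to 371.8 to 1643 CPM in tumors and 2.31 to 23.3 CPM in peri-tumor tissue. The summed CPM of 8 hepatocyte markers overlapped between tissues, at 107200 to 180600 in tumors and 72000 to 144300 in peri-tumor tissue. Alb alone averaged 102400 CPM in control tumors. By the test described below, 1 of the 8 rose and 2 fell in TCM tumors, where 32.9% of all genes were called. In control tumors 2 rose and 3 fell, where 43.2% of all genes were called. A principal component analysis parted the tissues on component 1 (54.6% of the variance) and TCM from control libraries on component 2 (12.7%). Both libraries of control mouse 4 lay between the treatments on component 2, at -4.49 for its tumor and 3.85 for its peri-tumor tissue, against -56.96 to -19.18 for the other control libraries and 21.54 to 38.21 for the TCM libraries. Results that rest on this mouse are given with and without it.

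Promoters are shown for 4 targets, to set 3 that rose in control tumors (Ankrd1, Ajuba and Nt5e) beside 1 that passed the test in none of the comparisons (Amotl2). Each window holds 250 bases before and 50 bases from the annotated start, written 5′ to 3′ on the gene's strand, from RefSeq with build GRCm38.p6. Capitals mark matches to the TEAD motif, searched as GGAATG on either strand and therefore seen as GGAATG or CATTCC. The Ankrd1 window is chr19:36119795-36120094 (minus strand), the Ajuba window chr14:54577612-54577911 (minus strand), the Nt5e window chr9:88327359-88327658 (plus strand) and the Amotl2 window chr9:102717554-102717853 (plus strand).
Ankrd1: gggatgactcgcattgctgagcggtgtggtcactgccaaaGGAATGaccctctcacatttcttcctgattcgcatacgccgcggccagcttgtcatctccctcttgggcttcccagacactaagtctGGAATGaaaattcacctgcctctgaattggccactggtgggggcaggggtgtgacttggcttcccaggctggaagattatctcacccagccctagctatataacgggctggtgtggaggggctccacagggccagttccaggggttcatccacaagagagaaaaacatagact
Ajuba: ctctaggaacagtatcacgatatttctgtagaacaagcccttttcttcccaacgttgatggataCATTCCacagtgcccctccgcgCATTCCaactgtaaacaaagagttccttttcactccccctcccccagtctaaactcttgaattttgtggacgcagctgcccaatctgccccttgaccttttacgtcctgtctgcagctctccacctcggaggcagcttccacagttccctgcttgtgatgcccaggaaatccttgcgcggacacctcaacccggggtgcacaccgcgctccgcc
Nt5e: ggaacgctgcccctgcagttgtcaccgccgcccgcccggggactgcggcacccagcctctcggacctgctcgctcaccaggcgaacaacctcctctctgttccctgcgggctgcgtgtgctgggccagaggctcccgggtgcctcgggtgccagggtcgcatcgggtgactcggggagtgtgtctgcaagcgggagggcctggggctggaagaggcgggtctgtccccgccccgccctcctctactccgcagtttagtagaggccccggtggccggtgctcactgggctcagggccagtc
Amotl2: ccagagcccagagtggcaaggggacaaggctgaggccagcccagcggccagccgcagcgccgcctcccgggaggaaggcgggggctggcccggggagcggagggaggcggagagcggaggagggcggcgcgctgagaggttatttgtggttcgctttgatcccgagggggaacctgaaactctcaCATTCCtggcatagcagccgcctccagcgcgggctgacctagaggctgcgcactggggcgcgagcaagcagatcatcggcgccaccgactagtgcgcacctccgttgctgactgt
The Ankrd1 window held 2 matches, with first bases at -210 and -123, counted from the start base as 0. The Ajuba window also held 2, at -186 and -164, and the Amotl2 window held 1, at -65. The Nt5e window held 0. Among the windows not printed, Yap1, Ccn1 and Axl held 1 match each, and of the 2 windows of Lats2, 1 held 1 match and 1 held 0. No window was available for Tead1 or Ccn2, so their promoters were not searched. Of 32851 mouse promoter windows of this length, 14.7% held at least 1 match. The AP-1 motif TGANTCA (7.81% of all windows) and the CArG box of SRF (1.63%) were in 0 of the 9 windows, so no match overlapped another motif. Such matches are letters in a short window, not measured binding, and they do not part the genes that rose in tumors from the one that did not.

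Yap1 RNA was the most abundant of the 10 per length in each of the 4 groups, and Tead1 or Ankrd1 was the least. In the authors' FPKM values (reads per kilobase, scaled to the library total), Yap1 averaged 8.73 ± 0.43 in TCM tumors, 9.85 ± 0.39 in control tumors, 7.38 ± 0.77 in TCM peri-tumor tissue and 7.35 ± 0.40 in control peri-tumor tissue (SD, n = 4 each). In control tumors it was followed by Ccn2 at 8.26 ± 4.66, Ccn1 at 8.18 ± 3.88 and Ajuba at 7.90 ± 0.74 FPKM, and the ranges of these neighbours overlapped. Axl had a lower mean than all of them, at 5.33 ± 0.33 FPKM. Its range, 4.99 to 5.77 FPKM, was apart from that of Ajuba but overlapped those of Ccn1 and Ccn2. In control peri-tumor tissue the second place was held by Axl at 6.89 ± 2.44 FPKM, overlapping Yap1, while Ccn2 stood at 2.28 ± 0.66 and Ajuba at 2.19 ± 0.71 FPKM. In TCM tumors Ccn1 followed Yap1 at 7.85 ± 2.52 FPKM, before Ajuba at 4.93 ± 1.75 and Ccn2 at 3.97 ± 1.61 FPKM, and in TCM peri-tumor tissue Ccn1 at 5.35 ± 2.47 and Axl at 2.75 ± 0.61 FPKM came next. Tead1 stayed between 0.14 and 0.21 FPKM in the 4 group means. The lengths implied by the authors' FPKM were 0.874 to 2.87 times the longest transcript of the GENCODE M21 annotation, so the order depends on them. Per kilobase of that transcript, Yap1 was again first in each group (15.7 to 19.5 CPM per kilobase), but Amotl2, which came sixth in TCM tumors by FPKM, came second there at 8.36 ± 0.92 CPM per kilobase.

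**Figure D1:**
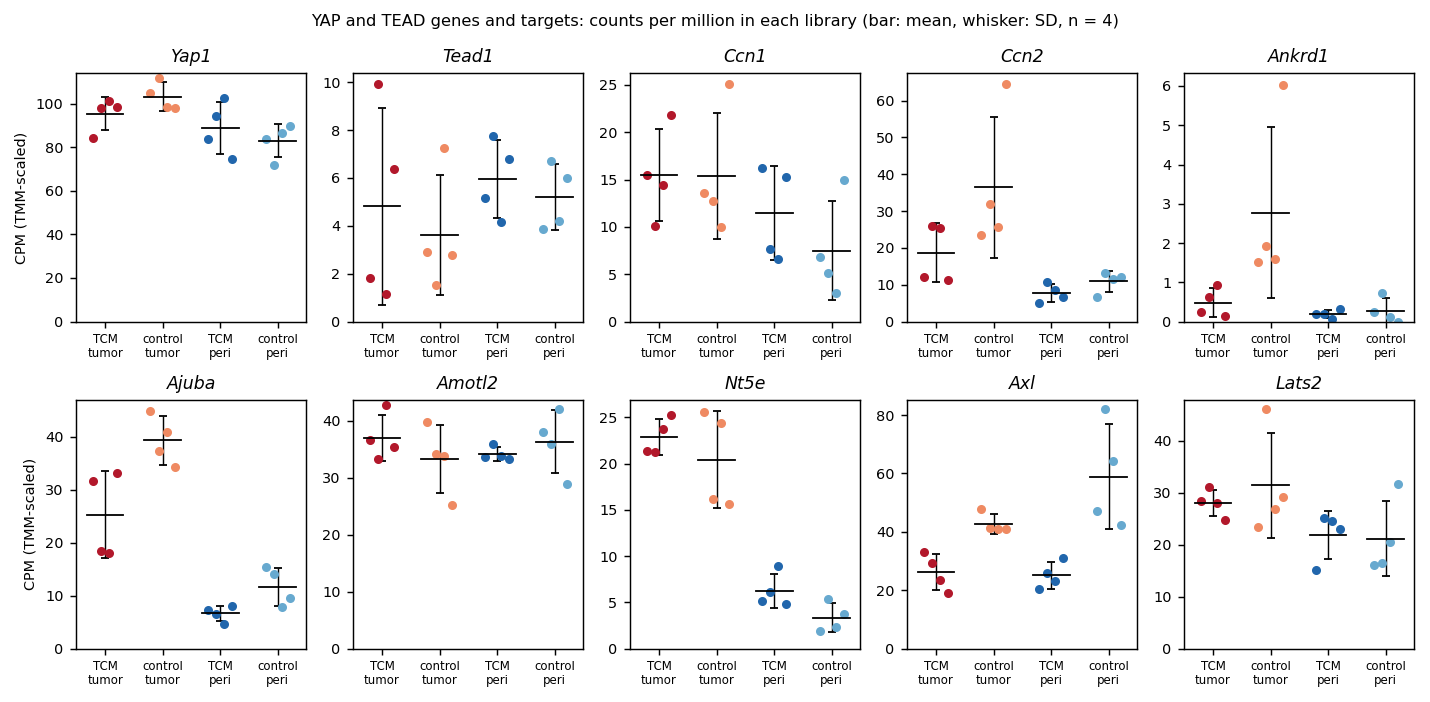
CPM (vertical axes, TMM-scaled) of each of the 10 genes in TCM tumor, control tumor, TCM peri-tumor and control peri-tumor tissue, with 1 point per library, the mean as a bar and the SD as a whisker (n = 4). Ajuba and Nt5e lie higher in tumors of both treatments, Axl lies lower in TCM than in control libraries of either tissue, and 1 control tumor library stands above the rest for Ccn1, Ccn2 and Ankrd1.

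Tumors carried more RNA of Ccn2, Ajuba and Nt5e than peri-tumor tissue in TCM mice and in control mice, and in control mice Ankrd1 and Yap1 were higher as well. Each gene was tested across all 16 libraries with edgeR's quasi-likelihood test, p values were adjusted by the Benjamini-Hochberg method over 14865 genes, and a gene is said to have risen or fallen where the adjusted p is under 0.05. In TCM mice 3 of the 10 rose and 0 fell (0 also at an unadjusted p under 0.05, with DESeq2 and with limma-voom), where 32.9% of all genes tested were called, 17.3% higher and 15.6% lower. In control mice 5 of the 10 rose and 0 fell (at an unadjusted p under 0.05, 7 and 1; DESeq2, 7 and 0; limma-voom, 7 and 1), where 43.2% of all genes were called, 22% higher and 21.2% lower. These fits leave out the pairing of the tissues by mouse. With the mouse as a block in edgeR, Ccn1 also rose in control mice (log2 fold change 1.17, adjusted p = 0.00129). No other call of the 10 genes changed with this block. The median log2 fold change of the 10 was 0.39 in TCM mice and 0.81 in control mice, against 0.00 over all genes in each. The 10 genes and the gene lists below were chosen with earlier results of these data known. Their counts and medians therefore describe these genes and do not test a shift of a set against all genes. In whole tissue, fewer cells of a type and less RNA per cell cannot be told apart.

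**Figure D2:**
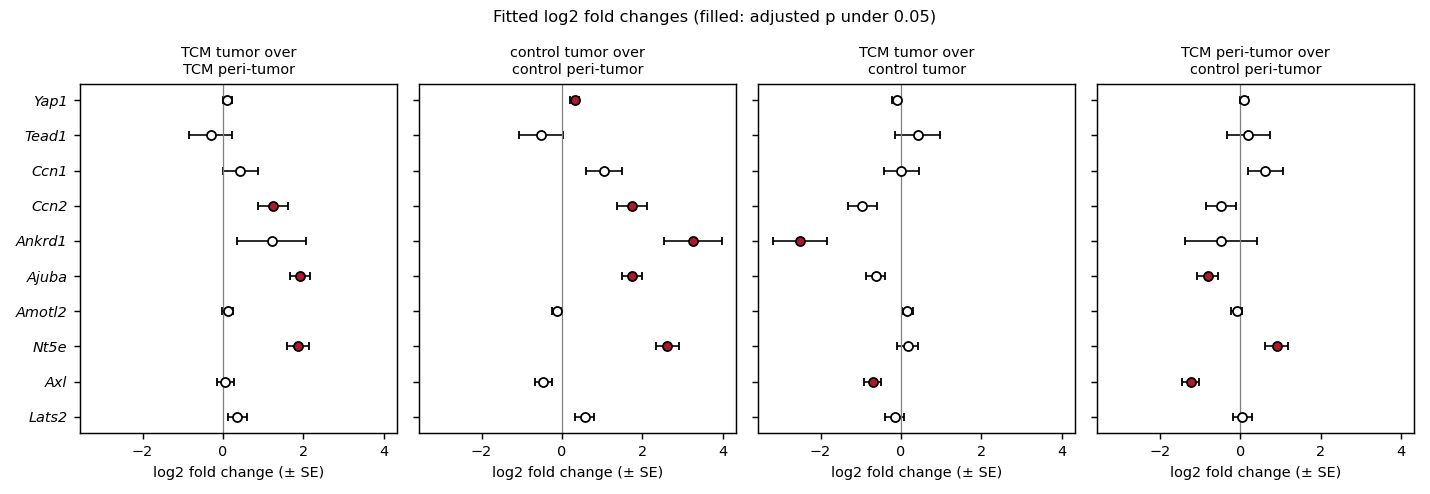
Fitted log2 fold changes (horizontal axes, with their SE) of the 10 genes in 4 comparisons, with filled points for an adjusted p under 0.05. Ccn2, Ajuba and Nt5e lie right of 0 with filled points in tumor over peri-tumor tissue of both treatments, and Axl lies left of 0 with filled points in TCM over control tissue of both kinds.

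Yap1 (chr9:7931999-8004596, GRCm38) differed little between groups. It stood at 84.1, 98.0, 100.96 and 98.6 CPM in TCM tumors, against 83.8, 94.1, 102.4 and 74.7 CPM in TCM peri-tumor tissue. Control mice had 104.8, 111.9, 98.2 and 98.0 CPM in tumors, against 83.7, 72.0, 86.7 and 89.7 CPM in peri-tumor tissue. The tissues overlapped in TCM mice and were apart in control mice. The log2 fold change was 0.10 ± 0.11 (SE, adjusted p = 0.495) in TCM mice and 0.31 ± 0.11 (adjusted p = 0.028) in control mice. The call in control mice was lost without peri-tumor library 1 or 2 or tumor library 1 or 2, with adjusted p from 0.0516 to 0.12. Tead1 (chr7:112679318-112906807), a DNA-binding partner of YAP, ran from 1.15 to 9.92 CPM in TCM tumors and 1.52 to 7.26 CPM in control tumors, against 4.15 to 7.75 CPM in TCM peri-tumor tissue and 3.88 to 6.71 CPM in control peri-tumor tissue. It did not pass the test in any comparison. Its SE was 0.54 to 0.55 in the tumor comparisons, so changes of that size, and larger ones, may go undetected.

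Of 8 listed partners of YAP, 5 were tested, and 3 rose and 1 fell in tumors of TCM mice and likewise of control mice (median log2 fold change 0.67 in TCM mice and 0.88 in control mice, against 0.00 over all genes in each). Over all genes tested, 32.9% were called in TCM mice and 43.2% in control mice. Tead4, another TEAD factor, averaged 4.03 CPM in TCM tumors and 0.41 CPM in TCM peri-tumor tissue (log2 fold change 3.28 ± 0.44, adjusted p = 4.41e-05), and 5.57 CPM in control tumors and 0.49 CPM in control peri-tumor tissue (3.502 ± 0.42, adjusted p = 9.11e-06). Wwtr1, which encodes TAZ, rose by 0.67 ± 0.13 in TCM mice and 0.88 ± 0.13 in control mice on the log2 scale, and Tead2 rose by 1.55 ± 0.39 in TCM mice and 1.67 ± 0.37 in control mice. Vgll4, whose product competes with YAP for TEAD factors, fell by 0.36 ± 0.13 in TCM mice and by 0.63 ± 0.13 in control mice. Tead3 did not pass, at 0.355 ± 0.22 in TCM mice (adjusted p = 0.247) and -0.24 ± 0.22 in control mice (adjusted p = 0.401). Vgll1, Vgll2 and Vgll3 were too low to test.

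Ccn1 and Ccn2 encode secreted matrix proteins, also known as CYR61 and CTGF, that are widely read as YAP targets. Ccn2 (chr10:24595442-24598683) had 12.1, 25.8, 25.4 and 11.3 CPM in TCM tumors, against 5.09, 10.9, 8.68 and 6.71 CPM in TCM peri-tumor tissue. Control mice had 23.6, 31.9, 25.6 and 64.4 CPM of it in tumors, against 6.62, 13.2, 11.6 and 12.2 CPM in peri-tumor tissue. The tissues were apart in both treatments, and tumor 4 of the control mice was the highest of all libraries. Ccn2 rose by 1.25 ± 0.37 in TCM mice (adjusted p = 0.0162) and by 1.74 ± 0.37 in control mice (adjusted p = 0.00125) on the log2 scale. The call in TCM mice was lost without peri-tumor library 1 or tumor library 2 or 3 (adjusted p 0.0520 to 0.0538). It was also lost without both libraries of TCM mouse 3, a fit chosen after seeing the data (1.12, adjusted p = 0.07585). An antisense gene, Gm15270, overlaps Ccn2, and since the strand setting of the counting is not known the 2 cannot be fully parted; it was given 39 counts over all libraries, against 4587 for Ccn2.

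Ccn1 (chr3:145646976-145649981) had 15.5, 10.1, 14.5 and 21.8 CPM in TCM tumors, against 16.2, 7.69, 6.65 and 15.3 CPM in TCM peri-tumor tissue. Its values in control mice were 13.6, 12.7, 10.02 and 25.1 CPM in tumors, against 6.81, 5.14, 2.99 and 14.98 CPM in peri-tumor tissue. The tissues overlapped in both treatments, and mouse 4 was the highest in both control tissues. The log2 fold change was 0.43 ± 0.43 (adjusted p = 0.48) in TCM mice and 1.04 ± 0.44 (adjusted p = 0.066) in control mice. Within each control mouse, however, the tumor was higher in 4 of 4, and with the mouse as a block the change was 1.17 (adjusted p = 0.00129). Without peri-tumor library 4 it was 1.62 (adjusted p = 0.00489), and without both libraries of mouse 4 it was 1.25 (adjusted p = 0.0179). Over the 8 fits that left out 1 library it ran from 0.69 to 1.62, with adjusted p up to 0.236. Only 1 of these 8 fits called it. Of the other CCN genes, Ccn4 and Ccn5 were tested, and Ccn4 rose in control mice at 1.76 ± 0.58 (adjusted p = 0.023), with 2.22 CPM in tumors and 0.65 CPM in peri-tumor tissue.

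Ankrd1 encodes an ankyrin repeat protein of the nucleus and of muscle fibres and is a commonly read YAP target. It was close to the limit of counting outside control tumors, with 4, 10, 13 and 2 counts in TCM tumors, against 3, 3, 1 and 5 counts in TCM peri-tumor tissue. Control tumors 1 to 3 had 24, 28 and 25 counts and all 4 together 178, against 4, 12, 2 and 0 counts in control peri-tumor tissue, and a count of 0 allows up to 3. Scaled for depth, this was 1.52, 1.94, 1.61 and 6.02 CPM in control tumors, against at most 0.73 CPM in control peri-tumor tissue, without overlap. Ankrd1 rose by 3.26 ± 0.72 in control mice on the log2 scale (adjusted p = 0.00183). The change was 2.52 without tumor library 4, 4.31 without peri-tumor library 2 and 2.12 without both libraries of mouse 4, and it was called each time. In TCM mice the tissues overlapped and the change was 1.21 ± 0.85 (adjusted p = 0.302). The gene passed the filter on low counts through its control tumors, so the size of its change rests on few reads in every other group.

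Ajuba, Amotl2 and Lats2 are targets of YAP whose products act back on the Hippo pathway: AJUBA is a LIM protein that holds LATS kinases in check, AMOTL2 is a junction protein that binds YAP, and LATS2 is a kinase that phosphorylates it. Ajuba (chr14:54567472-54577558) had 31.7, 18.3, 18.1 and 33.1 CPM in TCM tumors, against 7.33, 6.47, 4.68 and 8.12 CPM in TCM peri-tumor tissue. The control values were 44.9, 37.4, 40.8 and 34.2 CPM in tumors, against 15.3, 14.1, 7.88 and 9.48 CPM in peri-tumor tissue. Every tumor was above every peri-tumor library of either treatment. The rise was 1.92 ± 0.25 in TCM mice (adjusted p = 4.03e-05) and 1.75 ± 0.25 in control mice (adjusted p = 3.91e-05) on the log2 scale, and it was called without any 1 library of the groups compared. Amotl2 (chr9:102716672-102733418), in contrast, averaged 37.0 ± 4.05 CPM in TCM tumors, 33.3 ± 6.01 in control tumors, 34.2 ± 1.19 in TCM peri-tumor tissue and 36.3 ± 5.53 in control peri-tumor tissue (SD, n = 4 each). Its log2 fold change in tumors was 0.11 ± 0.14 in TCM mice (adjusted p = 0.557) and -0.12 ± 0.14 in control mice (adjusted p = 0.488).

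Lats2 (chr14:57689662-57758388) ran from 24.8 to 31.1 CPM in TCM tumors and 23.4 to 46.2 CPM in control tumors, against 15.1 to 25.1 CPM in TCM peri-tumor tissue and 16.04 to 31.6 CPM in control peri-tumor tissue. The tissues overlapped in both treatments, with log2 fold changes of 0.36 ± 0.24 in TCM mice (adjusted p = 0.271) and 0.57 ± 0.24 in control mice (adjusted p = 0.0628). The change in control mice was called by DESeq2 (adjusted p = 0.0491) and limma-voom (adjusted p = 0.0292), and it was also called without tumor library 1 (0.67), without peri-tumor library 4 (0.83) and without both libraries of mouse 4 (0.83). Over the 8 fits that left out 1 library it ran from 0.31 to 0.83, with adjusted p up to 0.281. Only 2 of these 8 fits called it. A model gene, Gm49361, overlaps Lats2 on the same strand and shares 56.5% of its 50-base words, so reads may be split between them; Gm49361 was given 55 counts over all libraries, against 6251 for Lats2.

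Among 21 genes upstream of YAP, all tested, 8 rose and 2 fell in tumors of TCM mice, and 9 rose and 2 fell in tumors of control mice. Over all genes tested, 32.9% were called in TCM mice, 17.3% higher and 15.6% lower. In control mice 43.2% were called, 22% higher and 21.2% lower. Counted in either direction, the calls of the 21 in control mice lie near the share of 43.2%. By direction, more of the 21 rose than fell in both treatments, while the shares over all genes were close to even. The median of the 21 was 0.25 in TCM mice and 0.43 in control mice on the log2 scale. Map4k4, a kinase that acts beside the MST kinases, averaged 47.5 CPM in TCM tumors and 10.7 CPM in TCM peri-tumor tissue (log2 fold change 2.16 ± 0.19, adjusted p = 1.4e-06), and 42.0 CPM in control tumors and 6.83 CPM in control peri-tumor tissue (2.62 ± 0.20, adjusted p = 1.46e-07). Fat1, a large cadherin, rose by 0.94 ± 0.17 in TCM mice and 1.49 ± 0.17 in control mice, and Wtip, a LIM protein related to AJUBA, rose by 1.26 ± 0.24 in TCM mice and 1.36 ± 0.23 in control mice. Frmd6, a scaffold at the cell edge, rose by 0.91 ± 0.18 in TCM mice and 1.77 ± 0.19 in control mice. Nf2, which encodes merlin, an activator of the LATS kinases, fell by 0.32 ± 0.11 in TCM mice and by 0.52 ± 0.11 in control mice. Mob1b, a partner of the LATS kinases, fell by 0.55 ± 0.11 in TCM mice and stood at -0.05 ± 0.11 in control mice (adjusted p = 0.761). The core kinase genes Stk3, Stk4 and Lats1 passed the test in neither treatment, while the adaptor Sav1 rose in both. Lats1 was low, with group means of 0.88 CPM in TCM peri-tumor tissue to 1.30 CPM in TCM tumors, so a change may go undetected. Nf2, Stk3, Stk4, Lats1 and Sav1 were chosen for naming after their values were seen.

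Nt5e encodes CD73, the enzyme on the cell surface that makes adenosine from AMP. Nt5e (chr9:88327197-88372092) had 21.4, 21.2, 23.7 and 25.2 CPM in TCM tumors, against 5.15, 6.14, 8.91 and 4.86 CPM in TCM peri-tumor tissue. In control mice it had 25.5, 16.2, 24.3 and 15.7 CPM in tumors, against 1.91, 5.32, 2.29 and 3.76 CPM in peri-tumor tissue. All tumors lay above all peri-tumor libraries. The rise was 1.87 ± 0.28 in TCM mice (adjusted p = 0.000103) and 2.62 ± 0.29 in control mice (adjusted p = 3.74e-06) on the log2 scale, and it was called without any 1 library of the groups compared. Of 7 other genes of extracellular adenosine, 5 were tested. Entpd2, which breaks down ATP upstream of CD73, rose by 2.12 ± 0.16 in TCM mice and 2.04 ± 0.16 in control mice, and Ada, which removes adenosine, fell by 1.02 ± 0.32 in control mice. The remaining 3 in control mice and 4 in TCM mice did not pass the test, where 43.2% and 32.9% of all genes were called.

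Axl (chr7:25757273-25788705) encodes a receptor kinase for GAS6 that is found on tumor cells and also on macrophages and other non-parenchymal cells of the liver. It had 33.1, 29.3, 23.5 and 18.9 CPM in TCM tumors, against 20.3, 25.8, 23.1 and 31.1 CPM in TCM peri-tumor tissue. Control tumors had 47.9, 41.2, 41.1 and 40.9 CPM, against 47.2, 81.9, 64.2 and 42.2 CPM in control peri-tumor tissue. The tissues overlapped in both treatments, with a log2 fold change of 0.06 ± 0.21 in TCM mice (adjusted p = 0.849) and -0.46 ± 0.20 in control mice (adjusted p = 0.0804). In control mice it was lower in tumors at -0.59 without peri-tumor library 4, at -0.60 without both libraries of mouse 4 and at -0.49 with limma-voom, each called. Over the 8 fits that left out 1 library, the change in control mice ran from -0.59 to -0.28, with adjusted p up to 0.259. Only 1 of these 8 fits called it.

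**Figure D3:**
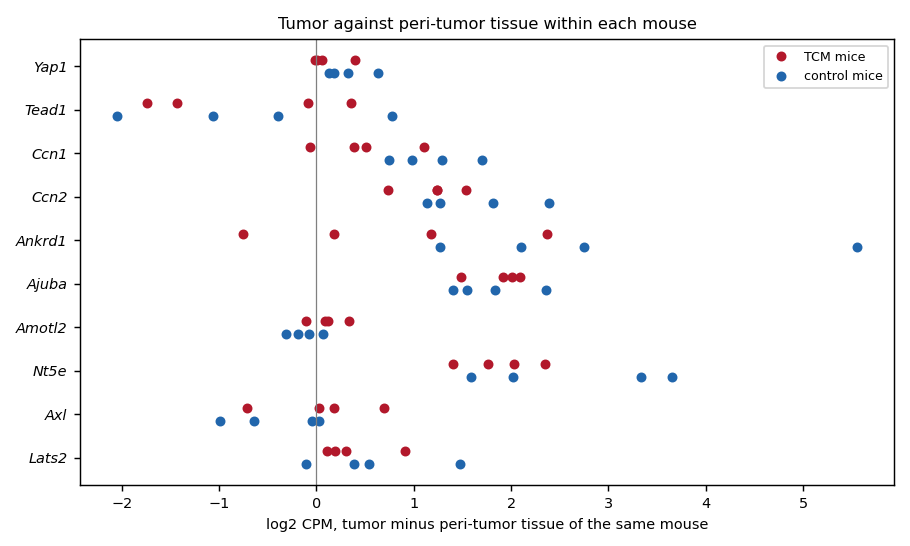
Tumor minus peri-tumor log2 CPM (horizontal axis) within each of the 4 TCM and 4 control mice, for the 10 genes. Ccn2, Ajuba and Nt5e lie right of 0 in 4 of 4 mice of each treatment, and Ankrd1 and Ccn1 do so in 3 of 4 TCM mice and 4 of 4 control mice.

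Set within each mouse, Ccn2, Ajuba and Nt5e were higher in the tumor in 4 of 4 TCM and 4 of 4 control mice. Yap1, Ccn1 and Ankrd1 were higher in 3 of 4 TCM and 4 of 4 control mice, and Lats2 in 4 of 4 TCM and 3 of 4 control mice. Tead1 was higher in the tumor in 1 of 4 mice of each treatment. Ajuba showed a narrow spread, from 1.49 to 2.10 in TCM mice and 1.40 to 2.36 in control mice on the log2 scale, whereas Ankrd1 ran from -0.75 to 2.37 in TCM mice and 1.27 to 5.56 in control mice. The 5.56 came from control mouse 4, where the peri-tumor library held 0 counts.

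Between TCM and control tumors, Ankrd1 and Axl passed the test as lower in TCM tumors, with calls that most fits without 1 library did not keep. Of the 10 genes, 0 rose (0 also at an unadjusted p under 0.05, with DESeq2 and with limma-voom) and 2 fell, where 7.28% of all genes tested were called, 4.55% higher and 2.72% lower. Ankrd1 averaged 0.48 ± 0.37 CPM in TCM tumors and 2.77 ± 2.17 CPM in control tumors, without overlap, and fell by 2.52 ± 0.68 on the log2 scale (adjusted p = 0.0364). Without control tumor 4 the change was -1.78 (adjusted p = 0.107), and the call was lost in 7 of 8 fits that left out 1 library, all but that without control tumor 1. With no filter on low counts, which Ankrd1 passed through its control tumors, the adjusted p was 0.0564. Axl averaged 26.2 ± 6.28 CPM in TCM tumors and 42.8 ± 3.45 CPM in control tumors, without overlap, and fell by 0.71 ± 0.21 (adjusted p = 0.049). This call was lost in 8 of 8 fits that left out 1 library (adjusted p 0.0504 to 0.129, log2 fold change -0.81 to -0.55).

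Ajuba was also lower in each TCM tumor than in each control tumor, averaging 25.3 ± 8.22 CPM in TCM and 39.3 ± 4.595 CPM in control tumors, but at -0.64 ± 0.24 it did not pass the test (adjusted p = 0.111), while with limma-voom it was called at -0.74 (adjusted p = 0.0238). Ccn2 averaged 18.7 ± 8.05 CPM in TCM tumors and 36.4 ± 19.0 CPM in control tumors, at -0.96 ± 0.36 (adjusted p = 0.108), and without control tumor 4 the difference was -0.52. Yap1, Tead1, Ccn1, Amotl2, Nt5e and Lats2 did not pass either, with log2 fold changes from -0.16 for Lats2 to 0.41 for Tead1. Nt5e in particular averaged 22.9 ± 1.94 CPM in TCM tumors and 20.4 ± 5.22 CPM in control tumors, at 0.16 ± 0.26 (adjusted p = 0.742).

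In peri-tumor tissue of TCM mice Axl and Ajuba were lower and Nt5e was higher than in control peri-tumor tissue. Of the 10 genes, 1 rose and 2 fell, where 14.1% of all genes tested were called, 6.71% higher and 7.35% lower. Axl averaged 25.1 ± 4.596 CPM in TCM and 58.9 ± 18.0 CPM in control peri-tumor tissue, without overlap, and fell by 1.23 ± 0.21 on the log2 scale (adjusted p = 0.00209), a call that held in 8 of 8 fits that left out 1 library. Ajuba averaged 6.65 ± 1.47 CPM in TCM and 11.7 ± 3.58 CPM in control peri-tumor tissue and fell by 0.81 ± 0.25 (adjusted p = 0.0433). Nt5e averaged 6.26 ± 1.85 CPM in TCM and 3.32 ± 1.55 CPM in control peri-tumor tissue and rose by 0.91 ± 0.29 (adjusted p = 0.0471). The groups overlapped for Ajuba and Nt5e, and each of these calls was lost in 5 of 8 fits that left out 1 library: Ajuba without TCM library 1, 2 or 3 or control library 1 or 2 (adjusted p up to 0.13), and Nt5e without TCM library 1, 2 or 3 or control library 1 or 3 (adjusted p up to 0.151). Ccn1, at 0.62 ± 0.44 (adjusted p = 0.373), was called higher with limma-voom, without control library 4 and without control mouse 4, where the change was 1.20 in each case (adjusted p = 0.03 without the mouse). Over the 8 fits that left out 1 library its change ran from 0.36 to 1.20, with adjusted p up to 0.646. Only 1 of these 8 fits called it.

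Of 4 genes around AXL 3 were lower and 1 was higher in the same tissue, and of 5 tested around CD73 1 was lower and 0 were higher. Over all genes tested, 14.1% were called there, 6.71% higher and 7.35% lower. Of the ligands GAS6 and protein S and the related receptors MERTK and TYRO3, Pros1 fell by 0.84 ± 0.11 (adjusted p = 0.000596), Mertk by 0.74 ± 0.22 (adjusted p = 0.0383) and Gas6 by 0.97 ± 0.30 (adjusted p = 0.041) in TCM against control peri-tumor tissue, and Tyro3, under 1 CPM in both, rose. Gas6 averaged 59.4 CPM in TCM and 116.5 CPM in control peri-tumor tissue. Between TCM and control tumors these 4 had adjusted p of 0.293 to 0.559, and between TCM tumors and TCM peri-tumor tissue 0.0525 (Tyro3) to 0.766 (Pros1). In control mice Tyro3 rose in tumors and Pros1 and Mertk fell, Pros1 by 0.59 ± 0.11 and Mertk by 0.76 ± 0.22, where 43.2% of all genes were called. Entpd1, which encodes the ATP-degrading enzyme CD39, was lower in TCM mice in both tissues, by 0.93 ± 0.27 in tumors (adjusted p = 0.0446) and by 1.09 ± 0.27 in peri-tumor tissue (adjusted p = 0.015).

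Whether the tumor effect itself differed between treatments was tested as TCM minus control. Of the 10 genes 0 differed in either direction (edgeR; 0 also at an unadjusted p under 0.05, with DESeq2 and with limma-voom), where 1.11% of all genes tested were called, 0.706% higher and 0.404% lower. The largest difference was that of Ankrd1, at -2.04 ± 1.17 (adjusted p = 0.394), followed by Nt5e at -0.75 ± 0.39 (adjusted p = 0.339) and Ccn1 at -0.61 ± 0.61 (adjusted p = 0.659). Ajuba differed by 0.18 ± 0.34 (adjusted p = 0.842). Yap1, which like Ankrd1 was called in control mice and not in TCM mice, differed by -0.21 ± 0.15 (adjusted p = 0.517), so for neither gene did the difference of the tumor effects pass.

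**Figure D4:**
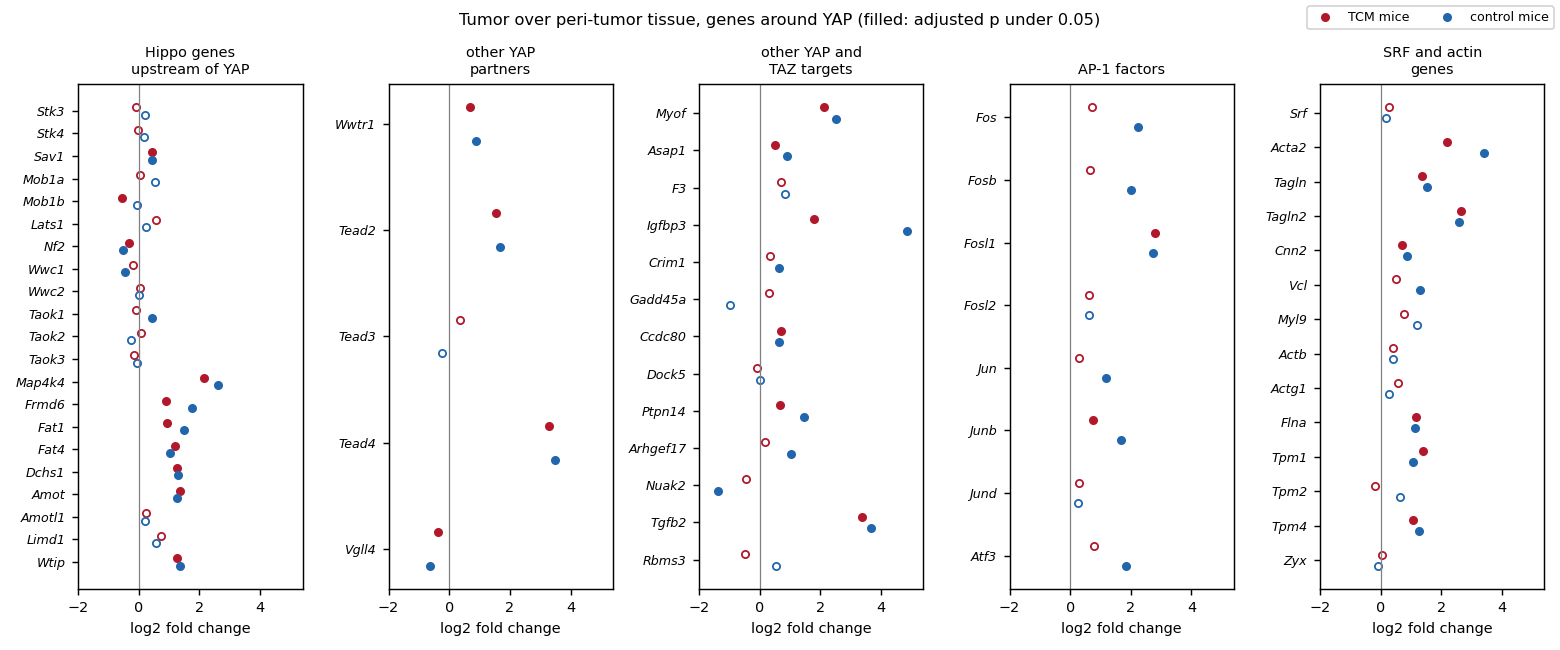
Log2 fold changes (horizontal axes) of tumor over peri-tumor tissue in TCM and control mice for genes upstream of YAP, other YAP partners, other YAP and TAZ targets, AP-1 factors and SRF and actin genes, with filled points for an adjusted p under 0.05. Map4k4, Tead4, Igfbp3, Tgfb2 and Tagln2 lie farthest right in their panels or near it, and Fos, Fosb, Jun and Atf3 are filled in control mice and open in TCM mice.

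Of 15 other listed YAP and TAZ targets, 13 were tested. In tumors of TCM mice 6 rose, 0 fell and 7 did not pass, and in tumors of control mice 8 rose, 1 fell and 4 did not pass (median log2 fold change 0.52 in TCM mice and 0.84 in control mice). Over all genes tested, 32.9% were called in TCM mice and 43.2% in control mice. Igfbp3, an IGF-binding protein, averaged 87.8 CPM in TCM tumors and 25.2 CPM in TCM peri-tumor tissue (log2 fold change 1.80 ± 0.38, adjusted p = 0.00168), and 378.5 CPM in control tumors and 13.0 CPM in control peri-tumor tissue (4.86 ± 0.43, adjusted p = 5.04e-07). It was the 1 listed gene whose tumor effect differed between treatments, at -3.06 ± 0.53 (adjusted p = 0.0103), and it fell by 2.11 ± 0.37 in TCM against control tumors (adjusted p = 0.00531). Myof, a membrane repair protein, rose by 2.11 ± 0.36 in TCM mice and 2.52 ± 0.34 in control mice and fell by 1.44 ± 0.32 in TCM against control tumors (adjusted p = 0.0163). Tgfb2, a growth factor, rose by 3.37 ± 0.57 in TCM mice and 3.66 in control mice, and Asap1, an adhesion regulator, by 0.52 ± 0.12 in TCM mice and 0.90 ± 0.12 in control mice. Nuak2, a kinase, was the 1 that fell in control mice, by 1.39, and is named after its value was seen.

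AP-1 factors bind many enhancers together with TEAD factors. Of 8 tested, 2 passed in tumors of TCM mice and 6 in tumors of control mice, all of them higher (median log2 fold change 0.68 in TCM mice and 1.76 in control mice). Over all genes tested, 32.9% were called in TCM mice, 17.3% higher, and 43.2% in control mice, 22% higher. The count of 2 in TCM mice lies near that share. Junb averaged 119.0 CPM in TCM tumors and 70.6 CPM in TCM peri-tumor tissue (0.76 ± 0.26, adjusted p = 0.0369), and 124.2 CPM in control tumors and 39.2 CPM in control peri-tumor tissue (1.66 ± 0.27, adjusted p = 0.000134). Fos rose by 2.25 ± 0.45 in control mice and stood at 0.72 ± 0.43 in TCM mice (adjusted p = 0.222), and the difference of the 2 effects, -1.54 ± 0.61, did not pass (adjusted p = 0.205). Of 14 tested genes of SRF and the actin cytoskeleton, which share targets with YAP, 7 passed in TCM and 8 in control mice, all of them higher (median 0.74 in TCM mice and 1.10 in control mice). The shares over all genes are those given for the AP-1 factors. Tagln2, an actin-binding protein, rose by 2.63 ± 0.17 in TCM mice and 2.57 ± 0.16 in control mice, and fell by 0.66 ± 0.15 in TCM against control tumors (adjusted p = 0.0193) and by 0.72 ± 0.16 in TCM against control peri-tumor tissue (adjusted p = 0.00961). Tpm1, a tropomyosin, rose by 1.38 ± 0.18 in TCM mice and 1.05 ± 0.18 in control mice.

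Markers of other cells moved with several of these genes. The 8 macrophage markers summed to 38.4 to 93.8 CPM in TCM tumors and 100.9 to 178.7 CPM in control tumors, and to 71.7 to 81.3 CPM in TCM peri-tumor tissue and 109.2 to 246.2 CPM in control peri-tumor tissue. Like Axl, this sum was lower in each TCM library than in each control library of the same tissue. No marker averaged 0 in a group, the lowest being Gpnmb at 0.105 CPM in TCM peri-tumor tissue. Between TCM and control, 4 of the 8 fell in tumors (Cd68, Trem2, Gpnmb and Ms4a7) and 3 fell in peri-tumor tissue (Adgre1, Csf1r and Cd68). Over all genes tested, 2.72% fell in tumors and 7.35% fell in peri-tumor tissue. Between tumor and peri-tumor tissue, 4 rose in TCM mice, and 5 rose and 2 fell in control mice, where 32.9% and 43.2% of all genes were called. The 7 Kupffer cell markers summed to 95.9 to 308.0 CPM in TCM tumors and 139.3 to 232.2 CPM in control tumors, against 518.8 to 593.2 CPM in TCM peri-tumor tissue and 845.7 to 1269 CPM in control peri-tumor tissue. Of these, 4 fell in TCM against control peri-tumor tissue. The part of macrophages and Kupffer cells in the values of Axl, Gas6, Mertk and Entpd1 was not tested.

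**Figure D5:**
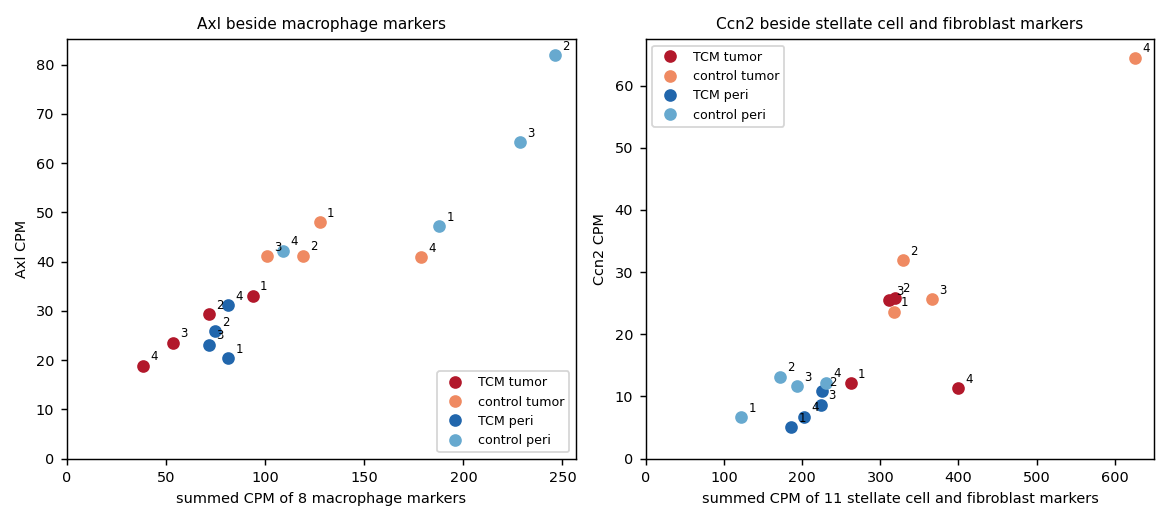
Left, Axl CPM (vertical axis) against the summed CPM of 8 macrophage markers, and right, Ccn2 CPM against the summed CPM of 11 stellate cell and fibroblast markers, with 1 point per library, numbered by mouse within its treatment. TCM libraries lie at the low end of both axes on the left, and control tumor 4 lies at the top of both axes on the right.

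The 11 stellate cell and fibroblast markers summed to 261.9 to 400.0 CPM in TCM tumors and 317.3 to 625.5 CPM in control tumors, against 186.2 to 225.7 CPM in TCM peri-tumor tissue and 122.1 to 230.8 CPM in control peri-tumor tissue. In tumors 5 rose and 2 fell in TCM mice, and 5 rose and 1 fell in control mice, with Col1a1 at 2.98 in TCM mice and 3.78 in control mice and Reln at 1.48 in TCM mice and 2.11 in control mice on the log2 scale. Lrat fell by 1.09 in TCM mice and by 0.93 in control mice, and Dcn fell by 1.23 in TCM mice and stood at -0.44 in control mice (adjusted p = 0.102). The median of the 11 was -0.10 in TCM mice and 0.485 in control mice. Over all genes tested, 32.9% were called in TCM mice and 43.2% in control mice. The highest sum, 625.5 CPM, was that of control tumor 4, the library that was also highest for Ccn1, Ccn2 and Ankrd1. SRF and actin genes were highest in it as well, at a sum of 1269 CPM, against 938.4 to 994.4 CPM in the other control tumors. The same library had the highest macrophage marker sum of the control tumors, 178.7 CPM against 100.9 to 127.6 CPM, and the lowest hepatocyte marker sum, 107200 CPM against 136100 to 149500 CPM. Each of the 11 averaged at least 1.28 CPM in every group. Ccn2 and Ankrd1 rose in control mice with and without mouse 4. In the other control tumors the stellate cell and fibroblast sum was 317.3 to 365.8 CPM, also above every control peri-tumor library. The part of these cells in the values of Ccn1, Ccn2, Ankrd1, Ajuba and Nt5e was not tested. Of 10 endothelial markers 3 rose and 2 fell in TCM tumors, and 2 rose and 2 fell in control tumors. Of 8 cholangiocyte markers 4 were tested, and Krt19 fell in control tumors. Of 5 mesothelial markers Upk3b alone was tested, with a sum of at most 8.07 CPM for the list, in TCM tumor 4.

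The genes closest to each of the 10 in pattern were sought over the 16 libraries, as the smallest root mean square difference of log2 CPM centred on each gene's mean. For Yap1 they were Tstd2 (0.098) and Metap1 (0.101), and for Amotl2 Rpl7a (0.111) and Rps19bp1 (0.116). Axl lay closest to Pld4 (0.228) and Lrrc25 (0.238), Lats2 to Rcn2 (0.242) and Rybp (0.243), and Ajuba to Rhbdf2 (0.325) and Ssbp4 (0.334). Ccn1 lay closest to Ptpdc1 (0.331) and Gemin8 (0.363), Ccn2 to Anxa1 (0.369) and Flna (0.405), and Nt5e to Mvd (0.384) and Zfp704 (0.402). The distances were largest for Tead1, with Opn3 (0.52) and Map2 (0.55), and Ankrd1, with Gpr176 (0.696) and Cd24a (0.709). Genes that vary little, such as Yap1, have small distances by construction. Of these neighbours, Flna is an actin-binding gene of the SRF and actin list.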

How the data were processed

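RNA was taken from tumor and peri-tumor liver of 8 mice, and 16 stranded mRNA-seq libraries were made, per the labels' protocols. The deposited count table holds whole reads per gene, with no scaling by the authors, and the deposited FPKM files hold the authors' values per kilobase and library total. FPKM and counts gave the same length for a gene in all libraries, with a largest deviation of 0.0092% over 11980 genes. Builds mm9 and mm10 appear in the submitters' processing notes; aligner, counter and strand setting were not found in the sources used here. The table includes 115 genes with no symbol and 27552 at 0 in every library.

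Counts were tested with edgeR 4.0.16 in R 4.3.3, using TMM scaling, filterByExpr (count minimum 10) and 1 fit of the 16 libraries with 4 group means, leaving 12 residual degrees of freedom. P values of the quasi-likelihood F test were adjusted by Benjamini-Hochberg over 14865 genes, at a threshold of 0.05. Each SE is the size of the log2 fold change divided by the root of F. FPKM was used only for levels between genes. The procedure was tested on simulated data. No library copied another, since the chi-square per degree of freedom within groups was 15.62 or more. The floor of 3 counts covers counting error only.

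Alternatives tried were RLE scaling, DESeq2 1.42.0, limma-voom (limma 3.58.1) with sample weights, no filter on counts, a minimum of 1 CPM in 4 libraries, a fit of the compared groups alone, and a replicate block. Left out in turn were each library, both libraries of control mouse 4 and, chosen after seeing the data, both of TCM mouse 3. The animal codes show which tumor and peri-tumor libraries come from 1 mouse. Once group means were taken off, such pairs had correlations of 0.235, 0.043, 0.091 and 0.114 (TCM mice) and 0.155, 0.116, 0.063 and 0.228 (control mice). The 10 genes and the gene lists were chosen with earlier results of these data known. Named from each pathway list were up to 4 genes of lowest p with at least 1 CPM on average in 1 group, and, per member, the 2 genes closest in pattern without predicted names.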

Additional observations from a re-analysis of the deposited data

Results flagged for a closer look

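In the 40 sets of 4 libraries (10 genes in 4 groups), 2 values stood far from the other 3 of their set, where about 1 in 20 is flagged by chance. Ankrd1 was at 6.02 CPM in control tumor 4, with a gap to the next library of 0.907 of the range of the group. Axl was at 47.95 CPM in control tumor 1, with a gap of 0.961 of the range, where the other 3 control tumors lay between 40.9 and 41.2 CPM.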

How the results depend on the processing

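The rise of Ajuba and Nt5e in tumors of both treatments, of Ccn2 and Ankrd1 in control tumors, and the lower Axl in TCM peri-tumor tissue kept direction and call under every alternative run. Apart from leaving out single libraries, 379 member values kept direction and call, 20 lost the call, 12 gained it and 6 changed sign, all uncalled; with single libraries left out the numbers were 426, 32, 5 and 17. The causes were not tested. Ankrd1 had 0 to 13 counts per library outside control tumors, which limits its values there.

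Changes of sign were Ankrd1 in TCM against control peri-tumor tissue (0.014), Tead1 in TCM against control tumors (-0.093), and the difference of the tumor effect for Tead1 (-0.45) and Ajuba (-0.077), all with limma-voom; Ccn1 in TCM against control tumors with only the groups compared (-0.0064, main value 0.0098); and Lats2 in TCM against control peri-tumor tissue without TCM mouse 3 (-0.0089).

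Members lower in TCM against control tumors numbered 2, against 1 with RLE, with the 1 CPM filter, with only the groups compared and without control mouse 4, and 0 with no filter, with the replicate number as block and without TCM mouse 3. In TCM against control peri-tumor tissue 1 was higher and 2 lower, against 2 and 1 with limma-voom, 0 and 1 with no filter, with only the groups compared and without TCM mouse 3, 0 higher with the replicate number as block, and 2 higher without control mouse 4. In control mice 0 were lower in tumors, against 1 with limma-voom and without control mouse 4.

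Over all genes, TCM against control tumors gave 1082 calls, against 1805 with DESeq2, 2193 with limma-voom, 687 with no filter, 1877 without control mouse 4 and 412 without TCM mouse 3. In peri-tumor tissue 2091 became 3349 with limma-voom, 3434 without control mouse 4 and 1162 without TCM mouse 3. The difference of the tumor effect gave 165, against 806, 603, 79, 714 and 47 with DESeq2, limma-voom, no filter, without control mouse 4 and without TCM mouse 3, and 107 with the mouse as block.

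With the mouse as a replicate block, Ccn1 rose in control tumors (1.17), and no other call of a member changed. Across treatments a shared number has no such basis: same-numbered libraries correlated at 0.007 to 0.111 in peri-tumor tissue and -0.101 to -0.004 in tumors. With that number as block, the calls of Nt5e in peri-tumor tissue (0.90) and of Ankrd1 (-2.42) and Axl (-0.72) in tumors were lost.

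Leaving out 1 library at a time gave 2 to 3 members higher in TCM tumors against TCM peri-tumor tissue (0 to 0 lower, 4098 to 4559 genes) and 4 to 7 higher and 0 to 1 lower in control tumors against control peri-tumor tissue (5759 to 6704). TCM against control tumors gave 0 to 0 higher and 0 to 1 lower (404 to 1250), TCM against control peri-tumor tissue 0 to 2 higher and 1 to 2 lower (1101 to 3228), and the difference of the tumor effect 0 to 0 (58 to 665). Signs changed only for uncalled values: TCM against control peri-tumor tissue for Ankrd1 (-0.85 to 0.60) and Lats2 (-0.062 to 0.31); TCM against control tumors for Tead1 (-0.19 to 1.02), Ccn1 (-0.17 to 0.37) and Lats2 (-0.25 to 0.10); the tumor effect in TCM mice for Tead1 (-0.93 to 0.014) and Axl (-0.059 to 0.20); and its difference for Tead1 (-0.39 to 0.82) and Lats2 (-0.47 to 0.052).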
